A study of Mus musculus with 6 samples.

Results

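Keratins are the intermediate filament proteins of epithelial cells, and 47 keratin genes were compared in salivary glands of mouse embryos kept with or without TGF-β1, out of 19505 genes measured. They are the genes whose symbol in the platform annotation is Krt followed by a number only. That leaves out keratin-associated proteins, which are a different family, and keratins with a letter in the symbol. Each of the 47 had a single probe set, so no choice between probe sets was needed. There were 3 arrays of untreated glands (controls 1 to 3) and 3 of glands given TGF-β1 (TGF-β1 1 to 3), a secreted growth factor that signals through receptor kinases and Smad proteins. All glands came from embryos of a stage labelled T13 and spent 72 hours in culture before total RNA was extracted; 6 µg of RNA was labelled with biotin for each Affymetrix array. The strain, the kind of salivary gland, the dose of TGF-β1, and whether replicates were separate cultures or pools of glands are not stated in the labels. The p-values therefore cover the spread among these 6 arrays alone, which may be technical.

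A keratin filament is built from pairs of 1 acidic type I and 1 basic or neutral type II chain, and an unpaired chain is unstable. Which pair a cell makes follows its place in the epithelium. Krt5 with Krt14 marks basal cells, which in the salivary gland include duct progenitors and myoepithelial cells. Krt8 with Krt18 is the pair of simple epithelia, made in ducts and acini, and Krt7 and Krt19 are typical of ducts. Krt16 and Krt17 belong to the stress keratins, which injured or activated stratified epithelium makes with Krt6 chains. Other members are keratins of suprabasal layers of skin, cornea and oral mucosa, or of hair and nail.

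Control 3 and, less so, TGF-β1 3 stood apart, and both enter every group mean that is not said to leave them out. Over all genes control 3 correlated with the other arrays at 0.550 to 0.601, and the other arrays with each other at 0.948 to 0.990. Its interquartile range spanned 2.05 log2 units, against 3.17 to 3.26 on the others. Gapdh, a glycolytic enzyme that every cell makes, was at 6.21 there and at 11.87 to 11.98 elsewhere. In control 3 bright keratins were low and dim ones high. It was the highest of the 6 arrays for 35 of the 47 keratins (51.9% of all genes) and the lowest for 8 (32.4% of all genes). For hair and nail keratins it was the highest for 19 of 19. Of 10 defining genes of gland epithelium (Epcam, Cdh1, Aqp5, Sox10 and 6 others), none was below the lower quartile on all of the 5 other arrays. The same held for 7 markers of myoepithelium and smooth muscle, 5 of mesothelium and 5 of mesenchyme. This count therefore does not tell these cell types apart.

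No keratin differed between TGF-β1 and control glands beyond the spread between arrays in the test of all 6. The test was limma's unweighted linear model, with p-values adjusted over all 19505 genes and a threshold of 0.05 for passing. It passed 0 of 47 keratins and 0% of all genes. At an unadjusted p under 0.05 there was 1 keratin, Krt16, and 1.99% of all genes. The groups did not overlap for 3 keratins, against 11.6% of all genes: Krt8 was above all controls on every TGF-β1 array (5.8% of all genes were), and Krt16 and Krt39, a hair keratin, were below them on each (5.78%). Without control 3 the groups did not overlap for 7 keratins (25.2% of all genes), 5 above both controls (12.8%) and 2 below (12.3%). With array weights, which give control 3 a weight of 0.0338 and TGF-β1 3 one of 0.398 against 1.65 to 4.52 for the others, 1 of 47 keratins passed (Krt16, lower), against 6.88% of all genes. Leaving out both control 3 and TGF-β1 3, 1 of 47 passed (Krt17, lower), against 2.59% of all genes (1.14% higher, 1.45% lower). Leaving out control 3 and weighting the other arrays, 0 of 47 passed, against 2.79% of all genes (1.26% higher, 1.53% lower). The keratins' share was thus at or below that of all genes in each fit.

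The type I and type II chains did not separate. The median difference (TGF-β1 minus control, log2 scale) was -0.35 over 26 type I and -0.32 over 21 type II genes, and -0.14 over all genes. Without control 3 these medians were -0.01, -0.03 and 0.01. With all arrays a difference below 0 was found for 21 of 26 type I and 16 of 21 type II genes. It was found for 11615 of all 19505 genes. Without control 3 and TGF-β1 3 these counts were 14 of 26, 13 of 21 and 9544 of 19505. The lower median of both types over 6 arrays was not seen without control 3, and its cause was not tested. The genes of the types lie in separate clusters: 25 of the 26 type I genes are on chromosome 11 and all 21 type II genes on chromosome 15. The exception is Krt18, whose neighbour on chromosome 15 is the gene of its partner, Krt8.

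**Figure D1:**
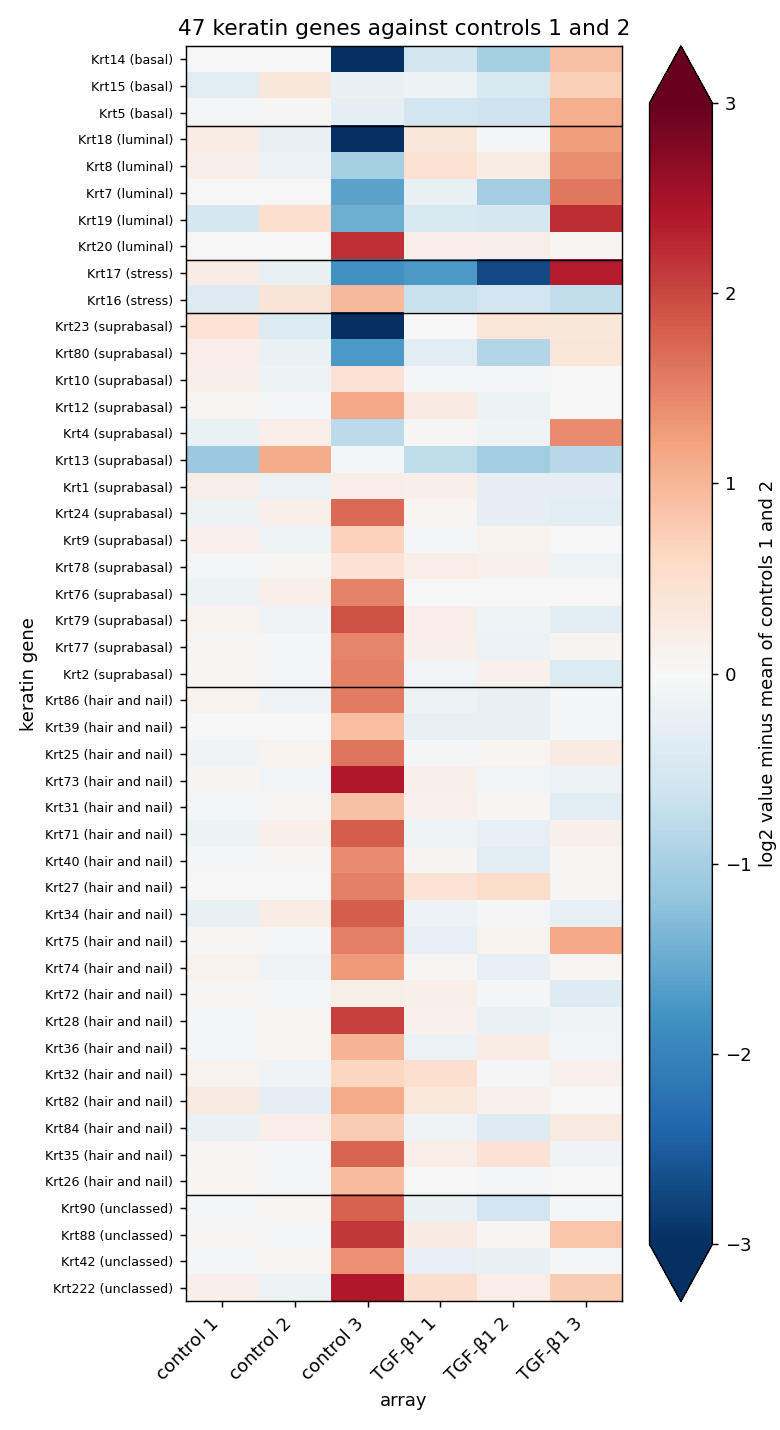
Heat map of the 47 keratin genes (rows, by class) on the 6 arrays (columns). Colour gives each array's distance, in log2 units, from the mean of controls 1 and 2, cut at 3 in either direction, so controls 1 and 2 mirror each other. The control 3 column is red for 19 of 19 hair and nail keratins and blue for most basal and luminal keratins; the TGF-β1 3 column is red for Krt17, Krt19, Krt7, Krt8 and Krt18.

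Keratins at the bright and the dim end of the arrays differed in how much they varied. A value depends on the probes of its set as well as on the transcript, so brightness is given only against each array's quartiles. Leaving out control 3, 5 keratins were above the upper quartile on all 5 arrays: Krt7, Krt8, Krt14, Krt18 and Krt23 (19.5% of all genes were). Another 16 of 47 were below the lower quartile on all 5 (19.1% of all genes were), among them Krt20. Of the 47, 13 ranged over more than 1 log2 unit on these 5 arrays, against 21.0% of all genes. These were the basal keratins Krt5, Krt14 and Krt15, the luminal Krt7, Krt8, Krt18 and Krt19, both stress keratins, and Krt4, Krt13, Krt75 and Krt80.

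Among the basal keratins, the groups overlapped for all 3, and for Krt5 and Krt14 TGF-β1 3 lay above controls 1 and 2 while the other TGF-β1 arrays lay below them. Krt5 had log2 values of 6.81, 6.86 and 6.54 in controls 1 to 3 and of 6.29, 6.21 and 7.93 in TGF-β1 1 to 3. TGF-β1 1 and 2 were below every control and TGF-β1 3 was above every control. Its difference was 0.07 ± 0.51 (SE, n = 3 per group), with a 95% interval of -1.13 to 1.27. Krt14, its type I partner, was at 10.53, 10.50 and 7.36 in the controls and at 9.97, 9.52 and 11.39 in the TGF-β1 arrays. TGF-β1 1 and 2 again lay under controls 1 and 2, and TGF-β1 3 above them. The difference was 0.83 ± 0.94 (interval -1.38 to 3.04). Krt15, a type I keratin of basal cells, was at 7.45, 8.16 and 7.58 in the controls and at 7.65, 7.32 and 8.53 in the TGF-β1 arrays, a difference of 0.10 ± 0.42. TGF-β1 3 was the highest array for all 3 genes.

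The sign of the basal differences depended on control 3 and TGF-β1 3, and not on the same array for each gene. Krt14 differed by -0.22 without control 3 alone and by 0.28 without TGF-β1 3 alone. Krt5 differed by -0.026 and -0.49 in the same order, and Krt15 by 0.029 and -0.24. Without both arrays, Krt5 differed by -0.59 ± 0.14 (limma adjusted p = 0.0866), Krt14 by -0.77 ± 0.18 (adjusted p = 0.0811) and Krt15 by -0.32 ± 0.25 (adjusted p = 0.597). None of these passed. The median over the 3 was 0.10 with all arrays, -0.49 with array weights and -0.59 without both arrays. Trp63, which encodes p63, the transcription factor of basal epithelial cells, did not share the high value of TGF-β1 3. It was at 10.96, 10.55 and 6.91 in the controls and at 10.44, 10.52 and 9.19 in the TGF-β1 arrays, so TGF-β1 3 was the lowest array apart from control 3. Its difference of 0.57 ± 1.05 did not pass.

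**Figure D2:**
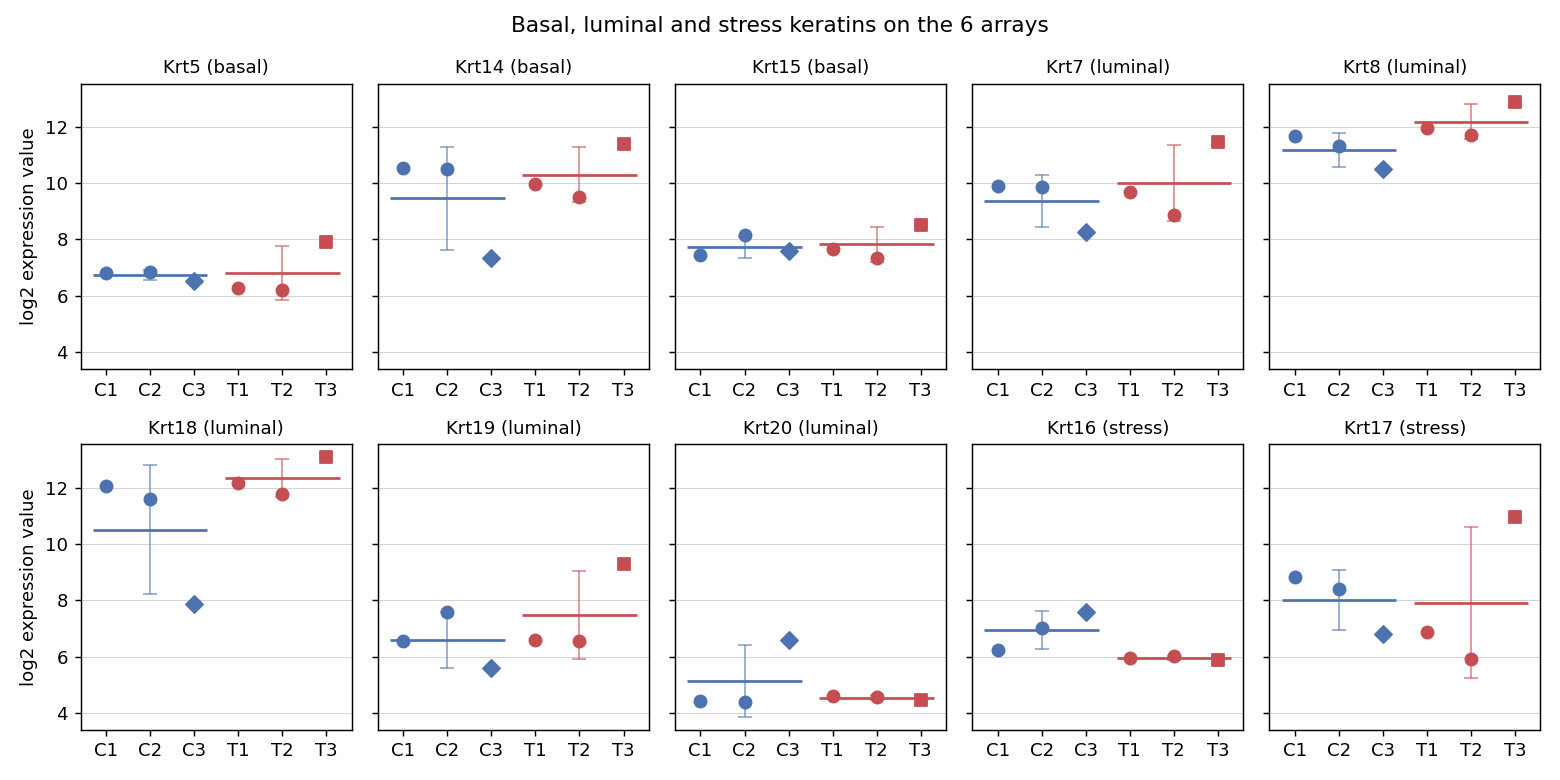
Log2 expression value (vertical axis, one scale for all panels) of the 10 basal, luminal and stress keratins on controls 1 to 3 (C1 to C3, blue) and TGF-β1 1 to 3 (T1 to T3, red). Points are arrays, with a diamond for control 3 and a square for TGF-β1 3; horizontal lines are group means and bars 1 SD. Krt17 spans 5.90 to 10.96 within the TGF-β1 group, while Krt16 spans 5.88 to 6.03.

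Of the luminal keratins, Krt8 was the only one with groups that did not overlap on the 6 arrays. Krt8 was at 11.67, 11.31 and 10.49 in the controls and at 11.95, 11.71 and 12.88 in the TGF-β1 arrays. The lowest TGF-β1 array was just above the highest control, control 1. The difference was 1.02 ± 0.47 (interval -0.08 to 2.12; limma adjusted p = 0.776). Krt18, its partner, was at 12.04, 11.60 and 7.86 in the controls and at 12.17, 11.77 and 13.07 in the TGF-β1 arrays. Only control 3 was far from the rest, and TGF-β1 2 lay under control 1. The difference of 1.84 ± 1.07 shrank to 0.15 ± 0.21 without control 3 and TGF-β1 3, and that of Krt8 to 0.34 ± 0.18; neither passed.

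Krt7 and Krt19, the ductal keratins, were high in TGF-β1 3 alone. Krt7 was at 9.90, 9.88 and 8.28 in the controls and at 9.67, 8.86 and 11.47 in the TGF-β1 arrays. TGF-β1 1 and 2 were below controls 1 and 2. Krt19 was at 6.57, 7.58 and 5.61 in the controls and at 6.60, 6.56 and 9.29 in the TGF-β1 arrays. TGF-β1 1 and 2 were level with control 1 and below control 2. The differences were 0.65 ± 0.76 and 0.90 ± 0.85 with all arrays, and -0.62 ± 0.26 (adjusted p = 0.283) and -0.49 ± 0.30 (adjusted p = 0.484) without control 3 and TGF-β1 3. Krt20, a keratin of intestinal epithelium and urothelium, was below the lower quartile everywhere but in control 3, at 4.39 to 4.59 on the 5 other arrays and 6.60 there. The median over the 5 luminal keratins was 0.90 with all arrays, 0.17 with array weights and 0.15 without both arrays.

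Both stress keratins had differences below 0 with all arrays, but that of Krt17 was only -0.08 ± 1.28. It turned to 0.33, 0.11, 0.44 and 0.92 without control 1, control 2, TGF-β1 1 or TGF-β1 2, in that order. The median of Krt16 and Krt17 was -0.53 with all arrays and -1.27 with array weights. It was -1.42 on the 4 arrays left without control 3 and TGF-β1 3. They differed in how far the TGF-β1 arrays spread, with an SD of 0.07 for Krt16 and 2.68 for Krt17. Krt16 was at 6.23, 7.01 and 7.59 in the controls and at 5.95, 6.03 and 5.88 in the TGF-β1 arrays. Every TGF-β1 array was below every control, and the TGF-β1 arrays lay within a narrow band, while the controls had an SD of 0.68. Its difference was -0.99 ± 0.41 (limma adjusted p = 0.776) with all arrays. It fell by 0.83 ± 0.19 with array weights (adjusted p = 0.0248). The direction was the same without control 3, at -0.66 (adjusted p = 0.618), and without control 3 and TGF-β1 3, at -0.63 ± 0.25 (adjusted p = 0.266), but neither passed.

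Krt17 had the widest range of the 47 keratins on the 5 arrays other than control 3, at 5.06. It was at 8.81, 8.38 and 6.79 in the controls, and at 6.88, 5.90 and 10.96 in the TGF-β1 arrays. TGF-β1 1 and 2 were far below controls 1 and 2, while TGF-β1 3 was 2.15 above the highest of them. The groups overlapped and the difference was -0.08 ± 1.28 (interval -3.09 to 2.93). Without control 3 and TGF-β1 3, Krt17 fell by 2.21 ± 0.32 (limma adjusted p = 0.0244, n = 2 per group). That fit leaves out the array with the highest Krt17, and both arrays were picked out by their values. With array weights Krt17 differed by -1.70 ± 0.51 (adjusted p = 0.0726). Krt16 and Krt17 are neighbours on chromosome 11 with similar sequences, and the positions of the array's probes were not used here, so cross-hybridisation between them was not tested. Krt6a and Krt6b, the type II chains they pair with, were not among the 19505 genes measured.

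**Figure D3:**
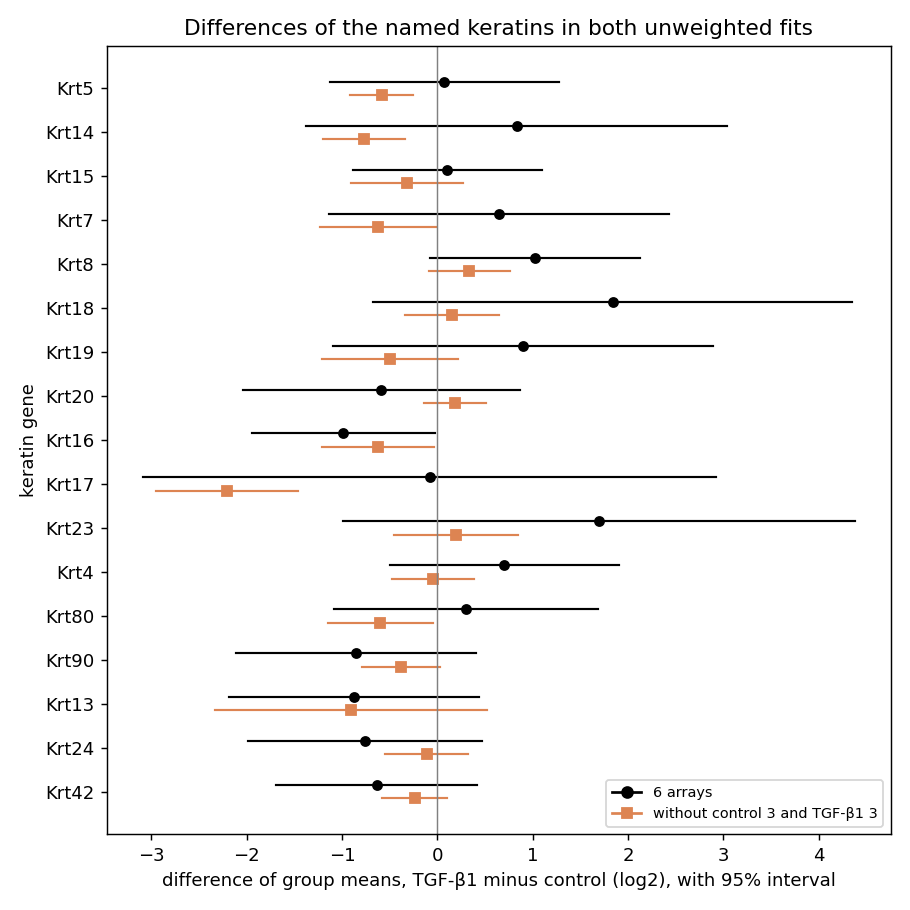
Difference of group means (TGF-β1 minus control, log2 scale) for the 17 named keratins, with the 95% interval of limma's unweighted fit. Black circles use all 6 arrays and orange squares leave out control 3 and TGF-β1 3. Krt14, Krt7 and Krt19 lie above 0 in black and below 0 in orange, and Krt17 moves from -0.08 to -2.21.

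The high keratins of TGF-β1 3 spanned basal, luminal and stress members. On that array 6 of 47 keratins exceeded the highest of controls 1 and 2 and TGF-β1 1 and 2 by more than 1 log2 unit, against 3.42% of all genes. They were Krt17, Krt19, Krt7, Krt4, Krt5 and Krt75, a keratin of the hair follicle. TGF-β1 3 was the highest of the 5 arrays for 16 of 47 keratins, close to the 31.2% of all genes. Of 14 measured markers of cornifying epidermis and oral mucosa, 5 were highest there among these 5 arrays. The log2 of their summed level was 11.17 in TGF-β1 3 and 10.13 and 10.19 in the other TGF-β1 arrays. It was 10.19 and 10.63 in controls 1 and 2 and 11.16 in control 3. Of the 14, 2 were below the lower quartile on all 5 arrays. For 10 markers of gland epithelium that sum was 14.001 to 14.228 in the TGF-β1 arrays. It was 13.72 and 13.17 in controls 1 and 2 and 11.35 in control 3. Of these 10 markers, 7 rose with array weights (3.45% of all genes did) and 4 without control 3 and TGF-β1 3 (1.14%). For 7 markers of myoepithelium and smooth muscle the sum was 12.57 to 13.04 in the TGF-β1 arrays. It was 12.84 and 11.42 in controls 1 and 2 and 10.14 in control 3. For 5 markers of mesenchyme it was 11.35 to 11.45 in the TGF-β1 arrays, 11.71 and 12.25 in controls 1 and 2 and 10.34 in control 3. The part of these cell types in the keratin values was not tested, and in whole glands fewer cells of a type and less RNA per cell cannot be told apart.

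The basal pair and the simple epithelial pair kept step across 5 arrays, and the mucosal pair of Krt13 with Krt4 did not. The log2 value of Krt18 minus that of Krt8 was 0.37, 0.29, 0.22, 0.06 and 0.19 in controls 1 and 2 and TGF-β1 1 to 3, a range of 0.30, while Krt18 itself ranged over 1.47 and Krt8 over 1.57. Krt14 minus Krt5 was 3.73, 3.64, 3.68, 3.32 and 3.47, a range of 0.41, while Krt14 ranged over 1.87 and Krt5 over 1.72. Only changes of these differences between arrays can be read, not their size, since different probes measure each gene. Control 3 broke both, at -2.63 and 0.82. Among the 42 pairs of a type I and a type II member that each ranged over more than 1 log2 unit on the 5 arrays, Krt18 with Krt8 had the narrowest range and Krt14 with Krt5 the next. Krt5, Krt8 and Krt18 met that limit only through TGF-β1 3, which exceeded the highest of the other arrays by 1.07, 0.93 and 0.90. The same held for Krt4, Krt15 and Krt75. The ranking therefore rests largely on that array. Krt13 with Krt4, the pair of suprabasal mucosa, ranged over 3.15 and was number 35 of the 42. The widest was that of Krt17 with Krt75, at 4.02. This comparison was chosen after the values were seen and is a description of 5 arrays.

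**Figure D4:**
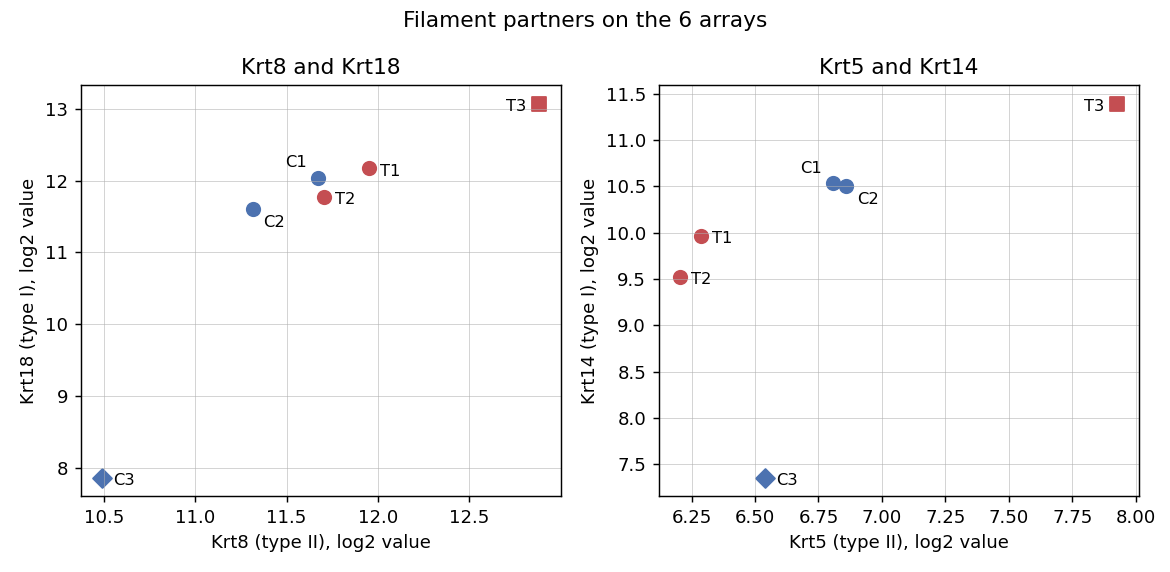
Log2 value of the type I chain (vertical axis) against its type II partner (horizontal axis) on the 6 arrays, for Krt18 with Krt8 and for Krt14 with Krt5; blue marks controls (C1 to C3) and red TGF-β1 arrays (T1 to T3). The points other than C3 rise together, with T3 at the top right of both panels; C3 lies below the others.

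For the 4 genes of the basal and the simple epithelial pair, the 250 bases before their start sites are shown, from RefSeq's promoters on build GRCm38.p6 and matched by gene symbol. They are Krt5 (chr15:101712906-101713155, minus strand), Krt14 (chr11:100206031-100206280, minus strand), Krt8 (chr15:102004343-102004592, minus strand) and Krt18 (chr15:102027966-102028215, plus strand). Each is written 5′ to 3′ on the gene's strand, and capitals mark matches on either strand to the motifs searched.
Krt5: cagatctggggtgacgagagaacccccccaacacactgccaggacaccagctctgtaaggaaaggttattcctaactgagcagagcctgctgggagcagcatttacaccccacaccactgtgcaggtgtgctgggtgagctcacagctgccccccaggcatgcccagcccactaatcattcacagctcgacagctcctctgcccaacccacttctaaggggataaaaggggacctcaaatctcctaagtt
Krt14: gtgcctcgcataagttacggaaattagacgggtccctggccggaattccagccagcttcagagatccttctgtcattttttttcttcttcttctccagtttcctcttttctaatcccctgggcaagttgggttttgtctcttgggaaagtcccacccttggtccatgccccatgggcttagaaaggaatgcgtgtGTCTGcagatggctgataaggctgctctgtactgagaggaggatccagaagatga
Krt8: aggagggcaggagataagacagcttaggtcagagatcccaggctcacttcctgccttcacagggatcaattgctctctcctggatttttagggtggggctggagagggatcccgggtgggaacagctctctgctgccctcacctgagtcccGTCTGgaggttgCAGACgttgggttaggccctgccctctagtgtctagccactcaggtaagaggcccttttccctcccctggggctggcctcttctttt
Krt18: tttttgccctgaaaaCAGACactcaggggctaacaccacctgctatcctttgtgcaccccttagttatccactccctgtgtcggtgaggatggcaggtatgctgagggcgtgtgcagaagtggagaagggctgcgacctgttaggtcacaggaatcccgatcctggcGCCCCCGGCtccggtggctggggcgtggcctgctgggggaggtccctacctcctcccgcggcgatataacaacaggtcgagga
The motifs searched were CAGAC, the short box that Smad proteins bind; GTCTAGAC, its palindrome; TGANTCA, bound by AP-1; GCCNNNGGC, bound by AP-2; GGGCGG, the GC box; and TATAAA, the TATA box. CAGAC was found at 99 and 87 bases before the start of Krt8, 55 before that of Krt14 and 235 before that of Krt18. Krt18 also held an AP-2 match, at 83 bases, and Krt5 held none of the 6. CAGAC is common: it lies in 42.2% of 32851 promoter windows of this length and in 17 of 36 windows of the 35 keratin genes with an entry. TATAAA lay in 16 of the 36 keratin windows, against 12.4% of all windows, and GGGCGG in 2 of 36, against 32.7%. TGANTCA lay in 2 of 36 (6.75% of all), GCCNNNGGC in 5 of 36 (13.7%) and GTCTAGAC in 0 of 36 (0.167%). These are counts of letters in fixed windows.

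Among the remaining 37 keratins, the 3 with a positive difference were Krt23, Krt4 and Krt80. Krt23, a type I keratin, was at 11.21, 10.38 and 6.44 in the controls and at 10.82, 11.17 and 11.14 in the TGF-β1 arrays. Only control 3 stood off, and the difference of 1.70 ± 1.14 became 0.19 ± 0.28 without it and TGF-β1 3. Krt4, a type II keratin of the suprabasal layers of mucosa, was at 8.06 in TGF-β1 3 and at 5.86 to 6.85 on the other 5 arrays. Krt80, a type II keratin, was at 8.56, 8.14 and 6.62 in the controls and at 8.04, 7.47 and 8.71 in the TGF-β1 arrays, with overlapping groups.

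The other keratins of smallest p had differences below 0, and none passed. Krt13, the type I partner of Krt4 in mucosa, was at 5.17, 7.38 and 6.25 in the controls and at 5.50, 5.23 and 5.45 in the TGF-β1 arrays. The 3 controls differed among themselves by more than the group means did, -0.87 ± 0.56. Krt90, Krt24 and Krt42 differed by -0.86 ± 0.53, -0.76 ± 0.52 and -0.64 ± 0.45. Each had its highest value in control 3, and without control 3 and TGF-β1 3 they differed by -0.38, -0.11 and -0.24. Over the 19 hair and nail keratins every difference was below 0 with all arrays and 10 were without control 3 and TGF-β1 3. Of all 19505 genes, 11615 and 9544 were. The median of the hair and nail keratins went from -0.41 to -0.03.

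Genes that anchor keratins at cell contacts did not pass with all arrays either, and a few did with array weights. Of 23 measured desmosome and keratin linker genes, 3 rose and 0 fell with array weights (3.45% and 3.44% of all genes did). Pkp3, a plakophilin that ties keratin-bound plaques to the membrane, was at 7.48, 7.13 and 7.42 in the controls and at 8.12, 7.87 and 8.36 in the TGF-β1 arrays, without overlap. It rose by 0.82 ± 0.16 (limma adjusted p = 0.00932). Pkp2, another plakophilin, rose by 1.07 ± 0.23 and Jup, plakoglobin, by 0.72 ± 0.18. Jup was at 9.44, 9.02 and 9.16 in the controls and at 9.92, 9.90 and 8.90 in the TGF-β1 arrays. TGF-β1 3 was thus its lowest array, and its difference was 0.34 without control 3 alone and 0.0025 with quantile normalization. Without control 3 and TGF-β1 3, Pkp3, Pkp2 and Jup differed by 0.69, 0.81 and 0.68, and none of the 3 passed (limma adjusted p = 0.104, 0.241 and 0.107). Of 7 hemidesmosome genes, Dst, which encodes linkers of filaments to the basal membrane plaque, fell by 0.99 ± 0.14 with array weights (adjusted p = 0.00185) and by 0.95 ± 0.15 without both arrays (adjusted p = 0.0274). Dst was at 5.51, 5.61 and 4.66 in the controls and at 4.55, 4.66 and 4.57 in the TGF-β1 arrays. Those TGF-β1 values lay below the lower quartile of their arrays (5.11 to 5.15), and the filter on the dimmest genes dropped Dst. Lama3, a laminin chain of the basement membrane below hemidesmosomes, rose by 0.76 ± 0.17 with array weights, and differed by 0.68 without both arrays, which did not pass (adjusted p = 0.102).

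Of 18 transcription factors that act on keratin genes or epithelial fate, 6 rose and 0 fell with array weights (3.45% and 3.44% of all genes did), and 2 rose and 0 fell without both arrays (1.14% and 1.45%). Elf5, an Ets factor of glandular epithelium, was at 7.35, 6.54 and 6.67 in the controls and at 8.91, 9.34 and 7.82 in the TGF-β1 arrays. The groups did not overlap, and it rose by 2.24 ± 0.25 (limma adjusted p = 5.70e-04) and, without both arrays, by 2.18 ± 0.28 (adjusted p = 0.0207). Sox10, a factor of distal gland epithelium, rose by 1.13 ± 0.18, and by 1.18 ± 0.19 without both arrays (adjusted p = 0.0301). Ehf, an epithelial Ets factor, and Sox2, a progenitor factor, rose by 1.71 ± 0.27 and 0.91 ± 0.20 with array weights. Without both arrays they differed by 1.53 ± 0.33 and 0.84 ± 0.23, which did not pass (limma adjusted p = 0.0618 and 0.119). Of 16 other intermediate filament genes 0 rose and 2 fell with array weights (3.45% and 3.44% of all genes did), and 0 passed without both arrays. Lmna, which encodes nuclear lamins A and C, fell by 0.91 ± 0.21, and Nefm, a neurofilament chain, by 0.69 ± 0.17. Without both arrays they differed by -0.92 and -0.52, and neither passed (limma adjusted p = 0.0536 and 0.288). Nefm was also dropped by the filter on the dimmest genes. Lmna was at 11.15, 11.57 and 8.92 in the controls and at 10.54, 10.33 and 11.72 in the TGF-β1 arrays, TGF-β1 3 again above all others. These lists were chosen with earlier results in view, so their counts describe them and test nothing about keratins.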

How the data were processed

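The deposited table held log2 values per probe set, made by the authors with RMA per the submitters' processing notes, with no version; RMA subtracts background, equalises arrays and summarises probes. The 6 columns do not share 1 distribution. Values were used as deposited. Of 22206 probe sets, 19572 had 1 gene symbol, 0 several and 2634 none here; the brightest probe set stood for a gene, leaving 19505. Groups came from the sample titles. Arrays carry no read depth, so their number limits the precision. The comparison of groups used limma 3.58.1 under R 4.3.3 (two-sided, Benjamini-Hochberg adjustment over 19505 genes), tested first on simulated data. Intervals are 95%. Array weights were estimated over all genes and are treated as known, which can make p-values too small. Named keratins are all basal, luminal and stress keratins, up to 4 others per direction of smallest p, and any whose direction turned by over 1 log2 unit. Members and lists were chosen with earlier results of these data known. Alternatives were array weights, arrays left out, other scaling, a dim filter (33.3% left out), mean probe sets, another prior and a replicate block.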

Additional observations from a re-analysis of the deposited data

How the results depend on the processing

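Counts of passed genes depended on how control 3 and TGF-β1 3 entered. Against 0 genes and 0 keratins with all arrays, array weights gave 1342 genes and 1 keratin. Leaving out both arrays gave 505 and 1, and leaving out control 3 with array weights gave 544 and 0. The last fit was chosen after seeing the data. The labels do not set control 3 and TGF-β1 3 apart, so leaving both out also followed their values. Leaving out any 1 array gave 0 of both. The sign of these differences (log2) turned with array weights: Krt5 -0.49, Krt14 -0.59, Krt15 -0.37, Krt7 -0.37, Krt19 -0.56, Krt20 0.17, Krt4 -0.035, Krt80 -0.36, Lmna -0.91 and Trp63 -0.24. It turned without both arrays: Krt5 -0.59, Krt14 -0.77, Krt15 -0.32, Krt7 -0.62, Krt19 -0.49, Krt20 0.19, Krt4 -0.049, Krt80 -0.60, Lmna -0.92 and Trp63 -0.28. It turned without control 3 with array weights: Krt5 -0.49, Krt14 -0.62, Krt15 -0.21, Krt7 -0.39, Krt19 -0.34, Krt20 0.18, Krt80 -0.46, Lmna -0.83 and Trp63 -0.36. Quantile normalization turned Krt15 (-0.037) and Lmna (-0.048). Leaving out 1 array at a time gave, for those that turned, Krt15 -0.24 to 0.36, Krt17 -1.61 to 0.92, Krt5 -0.49 to 0.37, Krt14 -0.22 to 1.36, Krt20 -0.96 to 0.14, Krt80 -0.28 to 0.69, Lmna -0.50 to 0.82, Trp63 -0.71 to 1.32, Krt7 -0.088 to 1.22 and Krt19 -0.0052 to 1.40. The cause was not tested. Median centring, another prior, the mean of probe sets and the dim filter, which kept 25 of 47 keratins, passed 0 keratins. The dim filter dropped Krt13, Krt20, Krt24, Dst and Nefm. None of these settings turned a named gene that it kept, but this could hardly have come out otherwise. Another prior and the dim filter leave each difference as it is, and each keratin had a single probe set. Median centring moved Krt5 only from 0.071 to 0.070.
Same-numbered deviations from group means correlated at -0.066, -0.0078 and -0.050. With control 3 far from the other controls, its distance sets most of the control deviations. These values therefore cannot show whether the replicate numbers pair the arrays, and the labels do not say. With the replicate number as a block 0 genes and 0 keratins passed (322 and 0 at an unadjusted p under 0.05), and the smallest adjusted p of a keratin was 0.800 (limma), against 0.776 without it. With 3 arrays per group and control 3 unlike the rest, the intervals are wide, and a difference that did not pass may still exist.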
